A study of Mus musculus with 4 samples.

Results

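Zinc finger genes of the Zfp series are described here in muscle stem cells, the Pax7-expressing precursors that repair skeletal muscle. The members were all genes of the authors' deposited table whose symbol is Zfp followed only by a number of 300 or above, which gave 156 of 11603 genes. RNA was sequenced from 2 samples with a conditional Hairless knockout (cKO) and from 2 control samples. All 4 came from hindlimb muscles of male mice on a C57BL/6 background, aged 4 to 5 months, and the cells were sorted as VCAM1+/CD31-/CD45-/Sca1-. The labels name no Cre driver, no inducing agent and no further allele for either group, and do not say if replicates are different animals, so p-values measure a spread between libraries that may be technical. Values are RPKM, read counts scaled for exon length and library size. Log2 fold changes are cKO over control on the log2(RPKM + 0.5) scale, on which differences of genes with low values come out too small.

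The C2H2 zinc finger is a short loop held by 2 cysteines and 2 histidines around a zinc ion, and arrays of such fingers read DNA sequence. Many mouse genes of this kind also encode a KRAB domain, which binds the corepressor TRIM28 and through it the H3K9 methyltransferase SETDB1, so that their bound sites, often retroelements and imprinted loci, become heterochromatin. These genes arose largely by tandem duplication and lie in clusters that can themselves carry H3K9me3, a mark that some of the H3K9 demethylases remove. Hairless (Hr) encodes a nuclear corepressor, and the title of the series ties it to the upkeep of heterochromatin and to a histone demethylase that it opposes. The comparison of cKO with control was read here for the transcripts of these genes. H3K9me3 itself was not measured in the data analysed here.

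The coding sequence of the first finger of 3 members is shown because it is the feature that names the family and because the 3 genes carry results given below. It was taken from the GENCODE M21 transcript with the longest coding sequence, and the capitals mark the cysteine and histidine codons.
Zfp949: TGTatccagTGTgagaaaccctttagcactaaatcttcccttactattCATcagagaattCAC
Zfp612: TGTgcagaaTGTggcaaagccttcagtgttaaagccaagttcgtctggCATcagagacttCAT
Zfp445: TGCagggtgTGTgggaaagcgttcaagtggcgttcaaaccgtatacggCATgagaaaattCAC
The spacing between the 4 marked codons was the same in all 3 stretches of 63 bases, and many bases between them differed.

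Of the 156 genes, 155 had a coding sequence in the annotation, with a median of 10 matches to the finger pattern and a maximum of 34 in Zfp462. Zfp330, Zfp365, Zfp503, Zfp703 and Zfp839 had 0 matches, so a Zfp symbol did not always stand for a canonical finger array. A KRAB A box was matched in 69 of the 155, with a median of 12 fingers, against 7 in the 86 without a match. RefSeq (GRCm38.p6) lists 269 genes with such symbols, of which 156 are in the deposited table. The filter that set which genes are in the table is not given in the sources used here.

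Most of the genes were expressed at low levels. Their mean over the 4 libraries ran from 0.146 RPKM for Zfp808 to 61.8 RPKM for Zfp330, with a median of 2.52 RPKM, against a median of 6.49 RPKM over all 11603 genes. The members took 0.272% and 0.259% of the reads in cKO 1 and cKO 2, against 0.313% and 0.330% in control 1 and control 2. With the authors' library sizes as the denominator the shares were 0.360% and 0.343% in cKO, against 0.365% and 0.357% in control, so the size of the gap depended on the denominator. Fewer cells of a type and less RNA per cell cannot be told apart in such bulk samples. The median member level was 2.34 and 2.29 RPKM in the cKO libraries, against 2.71 and 2.75 RPKM in the control libraries. A counting limit applied to a few genes, and Zfp808 had 10 and 0 reads in the cKO libraries.

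The 6 members with the highest means included genes of the nucleolus and of ribosome maturation. Zfp330, which encodes a nucleolar protein, had 70.7 and 57.8 RPKM in cKO, against 65.8 and 52.8 RPKM in control. Zfp948 had 63.6 and 64.7 RPKM in cKO, against 48.8 and 52.7 RPKM in control. Zfp830, a nuclear protein essential to the early mouse embryo, had 53.8 and 52.6 RPKM in cKO, against 40.7 and 34.3 RPKM in control. The groups did not overlap for Zfp948 and Zfp830, whose cKO values were the higher ones, and overlapped for Zfp330. Zfp706 had 46.1 and 40.6 RPKM in cKO, against 46.7 and 42.6 RPKM in control, and overlapped as well. Zfp622, which acts in late maturation of the large ribosomal subunit, had 55.6 and 44.5 RPKM in cKO, against 39.1 and 35.6 RPKM in control. Zfp655, whose protein binds the signalling adaptor Vav, had 40.9 and 30.5 RPKM in cKO, against 56.8 and 44.8 RPKM in control. It was the 1 gene of the 6 with both cKO values below both control values.

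Across the series, the libraries held 34101213 and 21757211 reads in cKO 1 and cKO 2, and 26990809 and 22577330 reads in control 1 and control 2. Hr had 7.15 and 7.90 RPKM in cKO, against 9.28 and 8.94 RPKM in control, a log2 fold change of -0.26 (limma, adjusted p = 0.431). Its transcript was therefore present in the libraries labelled cKO, and values summed over all exons cannot show whether a part was deleted. All 7 muscle stem cell markers were listed and summed to 3877 and 4317 RPKM in cKO, against 2911 and 2252 RPKM in control, of which Sdc4 made up most. Their median log2 fold change was 0.07, with 3 of 7 below 0. Sdc4, Chrdl2 and Myf5 had both cKO values above both control values, with log2 fold changes of 0.78, 0.73 and 0.44. Pax7, Vcam1 and Calcr overlapped between the groups. Itga7 was lower in both cKO libraries and averaged 55.9 ± 8.40 RPKM in cKO and 105 ± 19.5 RPKM in control (SD, n = 2 each). The 7 listed of 8 myofibre markers summed to 64.1 and 53.0 RPKM in cKO, against 178 and 713 RPKM in control, so that control 2 stood apart. The summed endothelial markers ranged from 22.3 to 31.8 RPKM in cKO and from 27.3 to 33.0 RPKM in control. The 5 blood markers summed to at most 18.7 RPKM in cKO and 16.4 RPKM in control, with Ptprc and Itgam under 0.05 RPKM in each library. Most of that sum came from Lyz2 and Cd68. Lyz2 had 4.62 and 13.0 RPKM in cKO, against 11.1 and 10.6 RPKM in control. Cd68 had 7.18 and 5.23 RPKM in cKO, against 5.15 and 5.26 RPKM in control. The 5 listed of 6 fibro-adipogenic markers summed to 370 and 308 RPKM in cKO, against 451 and 454 RPKM in control, with Pdgfra not listed. That lower sum came from Col3a1, at 204 and 96.1 RPKM in cKO, against 294 and 323 RPKM in control, and 3 of the 5 were above 0 on the log2 scale. Ly6a, which encodes the Sca1 antigen that the sort selected against, had 77.4 and 80.7 RPKM in cKO, against 47.9 and 49.5 RPKM in control, and Cd34 was also higher in both cKO libraries. The part of these cells in the differences below was not tested. The 4 smooth muscle and pericyte markers summed to 14.9 and 31.2 RPKM in cKO, against 20.5 and 19.5 RPKM in control.

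In the cKO libraries the Zfp genes leaned slightly to lower values, and no member passed the adjusted threshold of limma. The median log2 fold change was -0.08 over the 156 genes and -0.01 over all genes. Below 0 were 96 of the 156 (61.5%), against 51.7% of all genes. Both cKO values lay below both control values in 54 members (34.6%), where the background over all genes was 26.2%. Both cKO values lay above both control values in 26 members (16.7%), where the background was 25%. In either direction, 80 members were separate, against a background of 51.2%. After Benjamini-Hochberg adjustment over all 11603 genes, limma called 0 members higher (background 0%) and 0 members lower (background 0.00862%), and limma-voom on recovered reads also called 0 in each direction. At an unadjusted limma p under 0.05, 10 members were higher against a background of 10.3% and 12 were lower against a background of 7.69%, which are 6.41% and 7.69% of the members. At its adjusted p threshold of 0.05, the authors' deposited table had 2 members higher (background 3.59%) and 3 lower (background 4.26%), or 3.21% of the members in all against 7.84% of all genes.

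The direction of the median held in each alternative that was run, but its size did not. Without control 2, the library with high myofibre markers, the median of the members was -0.050, and 2 members were higher (1.28%) and 4 lower (2.56%) at an unadjusted p under 0.05, where all genes had 4.19% and 3.06%. Control 2 held the highest value of 61 members (39.1%), against 29.5% of all genes. The part of myofibre RNA in these differences was not tested. With scaling by the reads listed in the table in place of the authors' library sizes, the median of all genes was -0.20 and that of the members was -0.25, with 1 member higher (0.641%) and 35 lower (22.4%) at an unadjusted p under 0.05, where all genes had 3.70% and 19.2%.

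**Figure D1:**
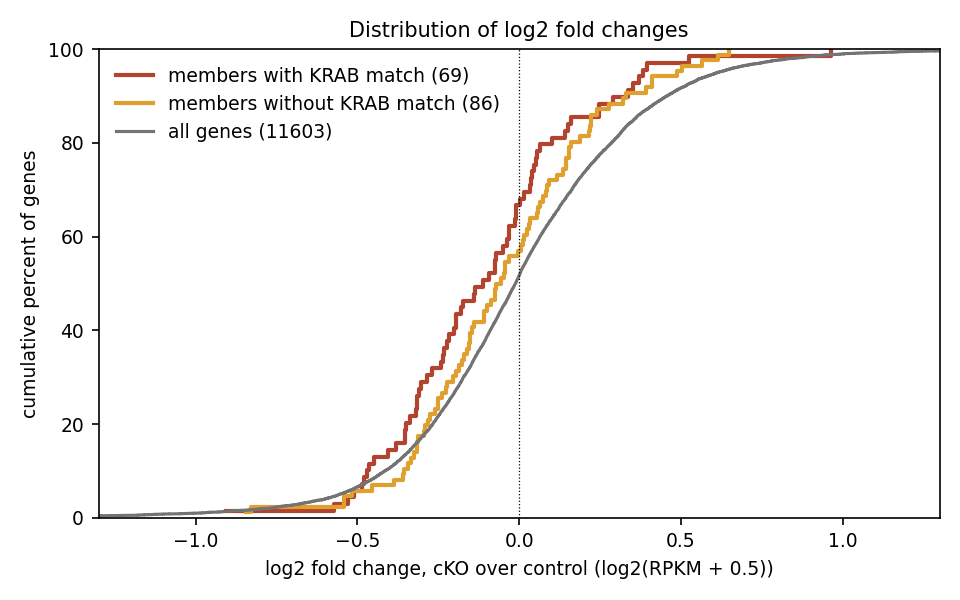
Cumulative percent of genes (vertical axis) by log2 fold change, cKO over control (horizontal axis), for 69 members with a KRAB match, 86 members without and all 11603 genes. The medians lie at -0.11, -0.06 and -0.01, and the axis stops at 1.3 in each direction.

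The 3 members that were lower in the authors' deposited table had control means 1.92 to 2.35 times the cKO means. Zfp949 (Entrez gene 71640, mm10 chromosome 9, 88548020 to 88571061, plus strand) encodes a KRAB protein with 11 finger matches. It had 7.93 and 9.76 RPKM in cKO, against 15.9 and 18.0 RPKM in control, and the gap between the groups was larger than the spread inside them. The means were 8.85 ± 1.29 RPKM in cKO and 17.0 ± 1.52 RPKM in control (SD, n = 2 each), and the log2 fold change was -0.91 ± 0.17 (SE). The adjusted p was 0.153 by limma and 0.000923 in the authors' deposited table. Zfp651 (Entrez gene 270210, chromosome 9, 121760033 to 121771742, plus strand) had 2.03 and 2.23 RPKM in cKO, against 3.43 and 5.06 RPKM in control. The 2 cKO libraries were close to each other and the 2 control libraries were not. Its log2 fold change was -0.83 ± 0.22 (SE), or -0.58 without control 2, with a limma adjusted p of 0.189 and an adjusted p of 0.00288 in the authors' deposited table. Zfp365 (Entrez gene 216049, chromosome 10, 67886103 to 67912662, minus strand) has a human counterpart known for a part in the stability of telomeres and fragile sites. It had 0.744 and 0.702 RPKM in cKO, against 1.67 and 1.72 RPKM in control, from 100 and 60 reads in cKO and 202 and 187 reads in control. The replicates of each group almost coincided, and the 2.35-fold ratio of the control mean to the cKO mean was the largest of the 3. The log2 fold change was -0.85 ± 0.14 (SE), with a limma adjusted p of 0.137 and an adjusted p of 0.00756 in the authors' deposited table.

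The 250 bases before and 50 bases after the start of these 3 genes are shown because they are the members that were lower together in the authors' deposited table. They are RefSeq sequences on GRCm38.p6 at chr9:88547770-88548069 (plus strand), chr10:67912613-67912912 (minus strand) and chr9:121759783-121760082 (plus strand), and capitals mark each CG dinucleotide, the site of CpG methylation.
Zfp949: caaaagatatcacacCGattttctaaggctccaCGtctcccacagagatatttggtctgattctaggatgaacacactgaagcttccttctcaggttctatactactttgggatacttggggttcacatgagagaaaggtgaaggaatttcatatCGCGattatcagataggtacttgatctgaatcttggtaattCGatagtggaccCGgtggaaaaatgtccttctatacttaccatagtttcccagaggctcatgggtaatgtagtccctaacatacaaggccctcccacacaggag
Zfp365: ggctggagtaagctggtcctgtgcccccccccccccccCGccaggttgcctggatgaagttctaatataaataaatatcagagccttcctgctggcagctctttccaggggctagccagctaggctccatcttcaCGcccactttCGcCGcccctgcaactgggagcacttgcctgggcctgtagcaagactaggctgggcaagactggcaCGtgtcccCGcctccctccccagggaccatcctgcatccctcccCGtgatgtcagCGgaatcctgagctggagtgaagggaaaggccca
Zfp651: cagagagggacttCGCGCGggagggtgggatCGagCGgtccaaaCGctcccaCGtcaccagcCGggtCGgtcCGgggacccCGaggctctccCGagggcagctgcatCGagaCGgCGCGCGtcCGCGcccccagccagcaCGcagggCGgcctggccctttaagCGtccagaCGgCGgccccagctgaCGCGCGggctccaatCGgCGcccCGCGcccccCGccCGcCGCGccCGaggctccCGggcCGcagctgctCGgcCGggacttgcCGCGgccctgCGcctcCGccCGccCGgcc
The stretches hold 6, 8 and 46 CG dinucleotides, in that order. The median was 19 over the 124 members with an entry and 23 over the 9288 genes of the table with one, and 46.8% and 61.6% of these genes had at least 20. The 3 genes thus lie on both sides of the family's median in CG content, and no further motif was searched.

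Both members that were higher in the authors' deposited table had control values below all cKO values. Zfp612 (Entrez gene 234725, chromosome 8, 110079764 to 110090181, plus strand), a KRAB gene with 16 finger matches, had 6.24 and 8.23 RPKM in cKO, against 3.04 and 3.87 RPKM in control. The cKO mean was 2.09 times the control mean, at 7.24 ± 1.40 RPKM in cKO and 3.45 ± 0.592 RPKM in control (SD, n = 2 each). Its log2 fold change of 0.96 ± 0.21 (SE) was the largest of the 156 in the upward direction, with a limma adjusted p of 0.168 and an adjusted p of 0.0154 in the authors' deposited table. Zfp608 (Entrez gene 269023, chromosome 18, 54888045 to 54990180, minus strand) had 4.22 and 3.35 RPKM in cKO, against 2.72 and 1.90 RPKM in control. The gap between the groups was smaller than the difference between the control libraries. The log2 fold change was 0.62 ± 0.22 (SE), or 0.41 without control 2, with a limma adjusted p of 0.242 and an adjusted p of 0.0449 in the authors' deposited table.

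**Figure D2:**
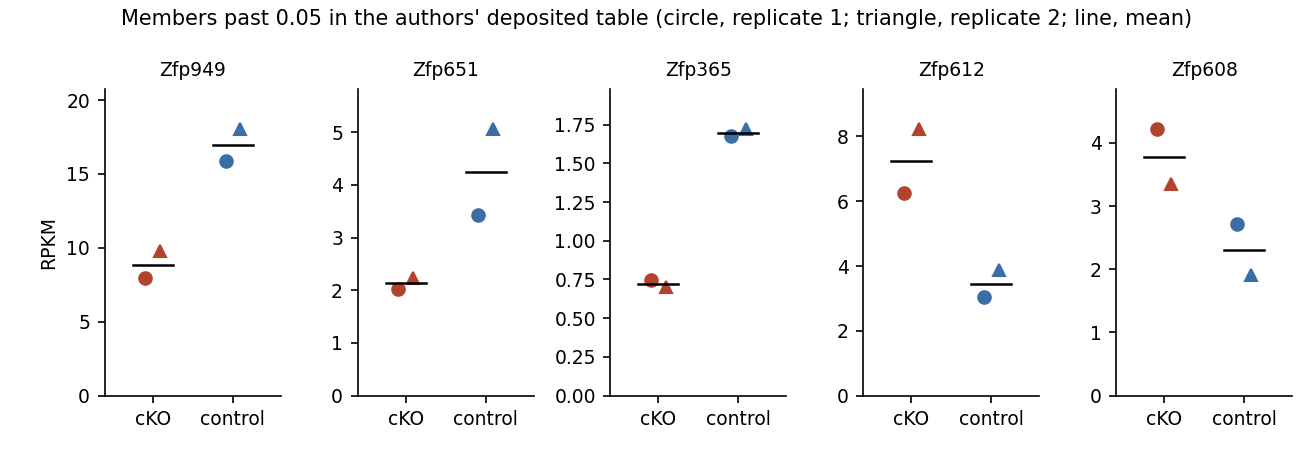
RPKM (vertical axes, each from 0) in the 2 cKO and 2 control libraries for the 5 members past the threshold in the authors' deposited table, with circles for replicate 1, triangles for replicate 2 and lines for group means. In Zfp949, Zfp651 and Zfp365 both cKO points lie below both control points, and in Zfp612 and Zfp608 both lie above.

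Among genes with a mean of at least 1 RPKM and groups that did not overlap, Zfp867 and Zfp346 came next in the lower direction. Zfp867, a KRAB gene, had 0.988 and 0.874 RPKM in cKO, against 1.95 and 1.35 RPKM in control. Zfp346, which encodes a protein that binds double-stranded RNA, had 2.32 and 2.30 RPKM in cKO, against 3.16 and 4.07 RPKM in control. Both had a wider spread in control than in cKO, and their limma adjusted p values were 0.227 and 0.233. In the higher direction Zfp503, Zfp628 and Zfp954 were the other genes named by this rule. Zfp503 (Nolz1), a repressor known from the developing striatum, had 7.75 and 10.9 RPKM in cKO, against 6.42 and 5.02 RPKM in control. Zfp628 had 2.78 and 3.58 RPKM in cKO, against 1.98 and 1.96 RPKM in control. Zfp954, a KRAB gene, had 49.1 and 51.6 RPKM in cKO, against 39.9 and 30.4 RPKM in control. Their log2 fold changes were 0.65, 0.57 and 0.53, and their limma adjusted p values ran from 0.221 to 0.237, so none passed.

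Whether KRAB genes lay lower than the other members depended on the level at which they were compared. Over all levels, their median log2 fold change was -0.11 over 69 genes and -0.06 over the 86 without a KRAB match. Both cKO values were below both control values in 25 of the 69 KRAB genes (36.2%) and in 28 of the 86 others (32.6%), against 26.2% of all genes. Both were above in 8 of the 69 (11.6%) and in 18 of the 86 (20.9%), against 25% of all genes. At low levels more of all genes lay below and fewer above, with 33.2% and 14.7% from 1 to 3 RPKM. The difference of the medians was -0.05, it was 9.5e-05 without cKO 2, and it was 0.02 under scaling by the reads listed. The 74 other genes of the table with a KRAB match had a median of -0.04.

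KRAB genes were also expressed at lower levels, with a median mean of 1.56 RPKM against 3.66 RPKM in the others, and log2 fold changes moved with level in all genes. Members under 1 RPKM had a median of -0.16 over 30 genes, and all 1596 genes at that level had -0.09. From 1 to 3 RPKM the medians were -0.13 over 58 members and -0.10 over 2219 genes, and from 3 to 10 RPKM they were -0.06 over 42 members and -0.06 over 3208 genes. At 10 RPKM or more, the median turned positive in both, at 0.08 over 26 members and 0.12 over 4580 genes. Median log2 fold changes also moved with exon length, and were lower for longer genes. Members of 5000 bases or more had a median of -0.15 over 54 genes, against -0.09 over all 4299 such genes, and those under 2500 bases had 0.03 over 36 genes, against 0.18 over all 2839. Within levels the split by KRAB match did not keep its direction. The medians were -0.11 over 21 KRAB genes and -0.25 over 9 others under 1 RPKM, and -0.12 over 30 and -0.14 over 27 from 1 to 3 RPKM. They were -0.20 over 12 KRAB genes and -0.02 over 30 others from 3 to 10 RPKM, and 0.35 over 6 and 0.06 over 20 at 10 RPKM or more. KRAB genes thus had the higher median in 3 of the 4 bins, some of which hold few genes. The part in the lean of the family was not tested further.

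**Figure D3:**
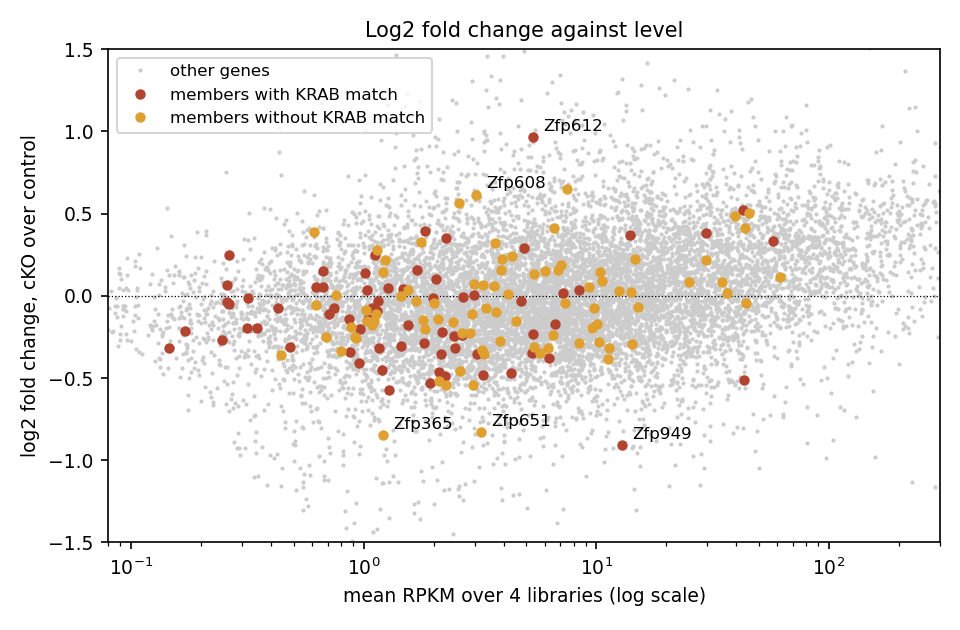
Log2 fold change, cKO over control (vertical axis), against mean RPKM over the 4 libraries (horizontal axis, log scale), for 155 members by KRAB match and all other genes in grey, with the 5 members of the authors' deposited table named. Member medians run from -0.16 below 1 RPKM to 0.08 at 10 RPKM or more, and genes outside the axis limits are not drawn.

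By position, 44 of the 156 genes were on chromosome 7, 18 on chromosome 17 and 14 on chromosome 8. The genes on chromosome 17 had a median log2 fold change of -0.17, with 14 of 18 (77.8%) below 0. Those on chromosome 7 had -0.03, with 24 of 44 (54.5%) below 0, against 51.7% of all genes. A cluster was defined as at least 3 members with neighbouring starts at most 500 kb apart, which gave 13 clusters with 61 genes. Of these 61, 42 had a KRAB match. The median log2 fold change was -0.04 inside clusters and -0.09 outside, and all 5 genes past the threshold in the authors' deposited table lay outside. Cluster medians ran from -0.26 to 0.14, with 8 below 0 and 5 above. With a largest gap of 250 kb there were 12 clusters of 50 genes with medians from -0.23 to 0.37, so the highest median depended on the gap.

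The largest cluster, on chromosome 7 from 127233061 to 127885996, held 10 members, 4 of them KRAB genes, and had the highest median at that gap, 0.14. Its most abundant gene was also the one with the smallest limma p, Zfp771, which had 41.3 and 51.0 RPKM in cKO, against 31.2 and 34.0 RPKM in control, a limma adjusted p of 0.223. The cKO values were separate from and above those of control in 2 of the 10 (20%, background 25%) and below in 1 (10%, background 26.2%). The cluster on chromosome 17 from 21567046 to 22867134 held 7 KRAB genes at a median of -0.01. It ranged from Zfp942, with 1.05 and 0.822 RPKM in cKO, against 1.58 and 1.33 RPKM in control, to Zfp948, with the values above and a log2 fold change of 0.34. Neighbours in 1 cluster thus had opposite directions, with limma adjusted p values of 0.252 and 0.268.

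The second cluster on chromosome 17, from 32771236 to 33033402, held 6 KRAB genes, and all 6 had log2 fold changes below 0, from -0.38 to -0.05. Its median level was 0.609 RPKM. Of all genes 51.7% were below 0, and of all genes under 1 RPKM 68.3% were. Zfp871, its most abundant gene, had 6.15 and 4.64 RPKM in cKO, against 7.95 and 6.35 RPKM in control. Zfp952 had 0.532 and 0.906 RPKM in cKO, against 1.03 and 1.02 RPKM in control. Zfp799 overlapped between the groups, at 0.297 and 0.219 RPKM in cKO and 0.297 and 0.443 RPKM in control. Both cKO values were below both control values in 3 of the 6 genes (50%), against 26.2% of all genes and 36.3% of all genes under 1 RPKM, and limma called none. The lowest median, -0.26, was that of 4 members on chromosome 7 from 12478293 to 12984340. Of these, Zfp606, Zfp329 and Zfp324 had both cKO values below both control values and Zfp446 did not. The background was 26.2% over all genes and 36.3% over all genes under 1 RPKM, the level of these 3. These 4 genes had low levels, and Zfp324 rested on 8 and 14 reads in the cKO libraries. Genes with similar sequences can share reads, whether or not they lie in a cluster. Over 20% of the 31-base words of 18 members also occur in another gene's transcripts, and the values of these members are uncertain. Among them are Zfp932 at 73.5%, Zfp706 at 44.1%, Zfp330 at 29.5% and Zfp384 at 25.1%, none of which lies in a cluster. Others do, such as Zfp747 at 55.5% and Zfp764 at 47.9%, both in the largest cluster. There are 8 members with exons that overlap another listed gene, such as Zfp668 and Zfp646, and whether strand was counted is not known. The median over the 137 members that share under 20% was -0.08.

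**Figure D4:**
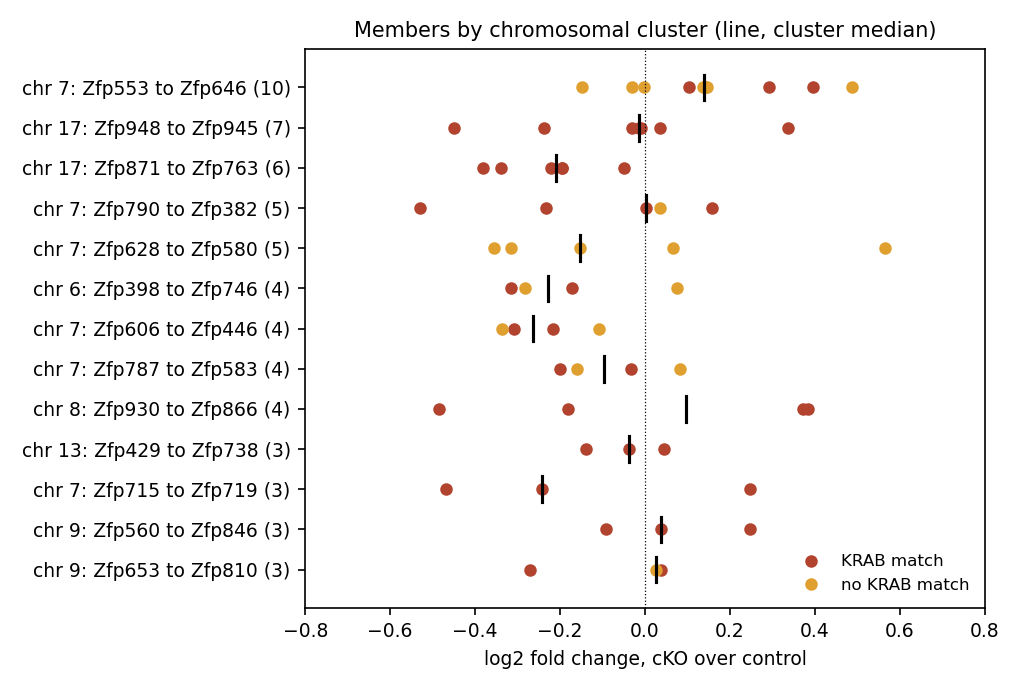
Log2 fold change, cKO over control (horizontal axis), of each member in the 13 chromosomal clusters, 1 row per cluster labelled by its chromosome, first and last gene and number of members, with vertical lines for cluster medians. Medians run from -0.26 to 0.14, and most rows hold genes on both sides of 0.

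Members with known roles in chromatin regulation showed small differences. Zfp644, a partner of the H3K9 methyltransferases G9a and GLP, had 4.24 and 4.12 RPKM in cKO, against 4.00 and 4.29 RPKM in control, and the groups overlapped. Zfp462, tied to the same enzymes in embryonic stem cells, had 1.36 and 1.22 RPKM in cKO, against 1.14 and 0.828 RPKM in control. Its groups did not overlap, with a log2 fold change of 0.28 and a limma adjusted p of 0.443. Zfp410, which activates Chd4, had 34.8 and 37.1 RPKM in cKO, against 33.3 and 34.3 RPKM in control, and Chd4 itself had 16.7 and 20.2 RPKM in cKO, against 17.1 and 19.3 RPKM in control. The Chd4 groups overlapped and the limma adjusted p was 0.974.

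Among the KRAB genes known for silencing, Zfp445, which helps maintain imprints, had 2.58 and 2.71 RPKM in cKO, against 3.89 and 3.88 RPKM in control. Replicates were close in both groups, and the log2 fold change was -0.48 ± 0.16 (SE), with a limma adjusted p of 0.229 and an adjusted p of 0.231 in the authors' deposited table. Zfp568, which represses a placental promoter of Igf2, had 4.47 and 5.21 RPKM in cKO, against 4.65 and 7.11 RPKM in control. It overlapped, and its log2 fold change was -0.23, or 0.05 without control 2. Igf2 had 25.2 and 36.9 RPKM in cKO, against 25.2 and 39.2 RPKM in control, and in both groups replicate 2 was the higher one. Zfp809, which silences murine leukaemia proviruses, had 8.74 and 8.32 RPKM in cKO, against 8.72 and 7.88 RPKM in control. Zfp932, a repressor of endogenous retroviruses, had 1.57 and 1.58 RPKM in cKO, against 1.69 and 2.43 RPKM in control. Zfp809 overlapped and Zfp932 was lower in both cKO libraries, though most of its words are shared.

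The role list also held factors of transcription and ribosome assembly. Zfp326, part of a complex that links transcription to splicing, had 7.56 and 7.58 RPKM in cKO, against 6.64 and 6.53 RPKM in control. Zfp593, a factor of large ribosomal subunit assembly, had 8.14 and 6.997 RPKM in cKO, against 6.01 and 5.14 RPKM in control. Zfp326, Zfp593 and Zfp622 had both cKO values above both control values, with log2 fold changes of 0.19, 0.41 and 0.41, and none passed, with limma adjusted p values from 0.275 to 0.562. Under scaling by the reads listed, Zfp326 had -0.03.

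Members known from cell fate mostly overlapped. Zfp521, which blocks adipocyte commitment, had 2.54 and 2.65 RPKM in cKO, against 3.18 and 3.08 RPKM in control, and was lower in both cKO libraries with a limma adjusted p of 0.505. Zfp423, Zfp467, Zfp708, Zfp750 and Zfp819 are not among the genes of the table. Zfp516, a brown fat activator, had 5.47 and 7.33 RPKM in cKO, against 5.70 and 5.60 RPKM in control. Zfp703, a corepressor related to Zfp503, had 41.8 and 31.03 RPKM in cKO, against 43.0 and 29.5 RPKM in control. For both genes the 2 cKO libraries differed by more than the group means did. The commitment targets of Zfp423 and Zfp521 gave Ebf1 at 0.536 and 1.53 RPKM in cKO, against 0.986 and 1.149 RPKM in control, and Pparg at 3.98 and 4.33 RPKM in cKO, against 3.80 and 2.68 RPKM in control. Zfp384, a nuclear matrix factor, had 9.63 and 9.22 RPKM in cKO, against 10.3 and 11.0 RPKM in control. Its groups did not overlap, and its log2 fold change was -0.17. Zfp318, needed for IgD in B cells, Zfp335, tied to H3K4 methylation, and Zfp407, known from adipocyte glucose uptake, had log2 fold changes of -0.14, 0.06 and -0.25 with overlapping groups.

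**Figure D5:**
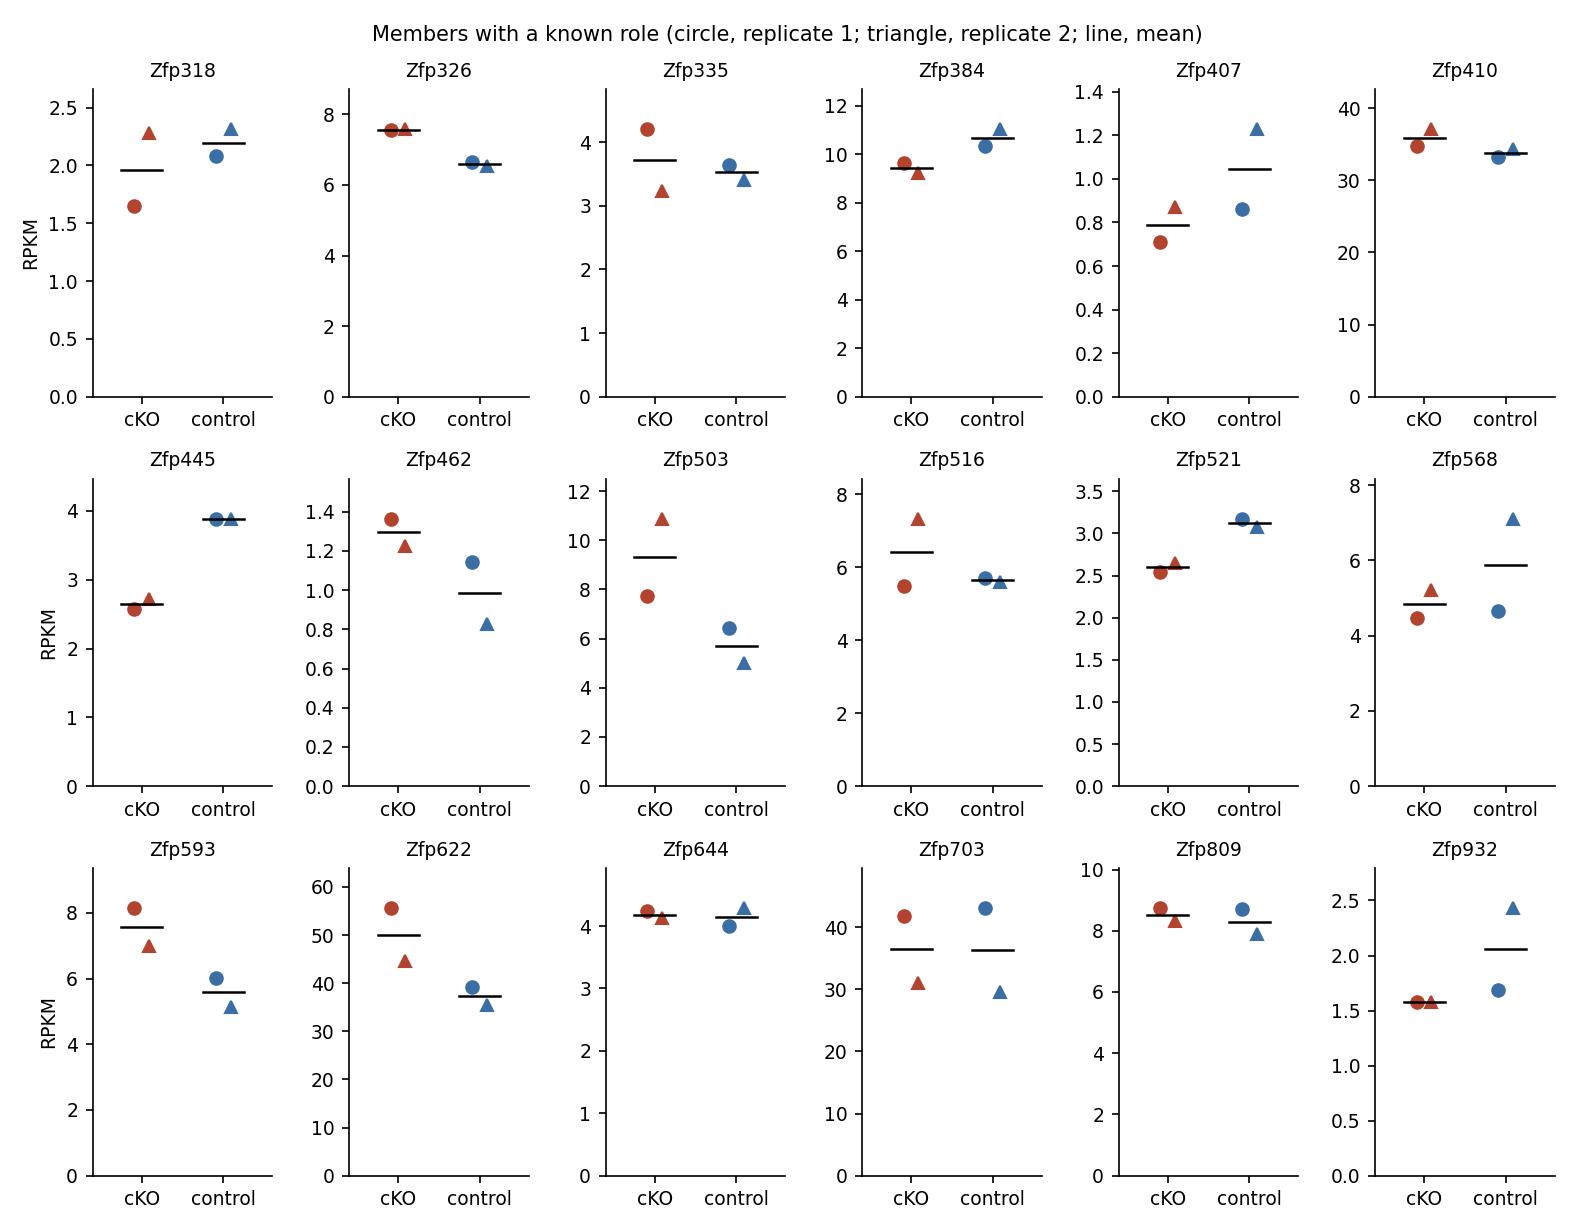
RPKM (vertical axes, each from 0) in the 2 cKO and 2 control libraries for the 18 listed members with a known role, with circles for replicate 1, triangles for replicate 2 and lines for group means. Zfp445, Zfp521, Zfp384 and Zfp932 lie lower in both cKO libraries, Zfp326, Zfp410, Zfp462, Zfp503, Zfp593 and Zfp622 lie higher, and the other 8 overlap.

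Of 32 genes on a list of the KRAB corepressor pathway and of H3K9 regulation, 31 were listed, with a median log2 fold change of -0.15 and 0 called by limma in either direction. Both cKO values lay below both control values in 12 of the 31 (38.7%), against a background of 26.2%, and above in 5 (16.1%), against 25%. The list had a median level of 5.68 RPKM and a median exon length of 5331 bases. Of all genes from 3 to 10 RPKM, 30.95% lay below and 19.51% above. Of all genes of 5000 bases or more, 35.36% lay below and 15.35% above, so these shares were nearer to those of the list. Trim28, the corepressor that KRAB domains bind, had 25.1 and 23.4 RPKM in cKO, against 27.4 and 27.0 RPKM in control. Setdb1, the methyltransferase it recruits, had 1.88 and 1.26 RPKM in cKO, against 2.23 and 2.31 RPKM in control. Both were lower in each cKO library, with log2 fold changes of -0.16 and -0.44 and limma adjusted p values of 0.566 and 0.326. Uhrf1, a partner of Dnmt1 that is abundant in cycling cells, was the 1 gene of the list at an unadjusted limma p under 0.05, with 0.664 and 0.457 RPKM in cKO, against 1.45 and 2.27 RPKM in control. Its limma adjusted p was 0.153, and it was lower in the authors' deposited table, with an adjusted p of 2.96e-07. The 2 most abundant were Hdac1, a histone deacetylase, at 41.1 and 43.0 RPKM in cKO and 35.0 and 37.0 RPKM in control, and Sumo2, a ubiquitin-like modifier, at 44.9 and 45.5 RPKM in cKO and 40.3 and 35.9 RPKM in control.

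The 74 genes with a Zfp number under 300 had a median log2 fold change of -0.04, with both cKO values below both control values in 18 (24.3%) and above in 9 (12.2%). Over all genes these shares were 26.2% and 25%, and over all genes from 1 to 3 RPKM they were 33.2% and 14.7%. The number 300 is a rule of naming. Just inside it, Zfp317 had 5.03 and 4.21 RPKM in cKO, against 5.46 and 6.59 RPKM in control, and Zfp318 had 1.64 and 2.28 RPKM in cKO, against 2.08 and 2.31 RPKM in control. Just outside it, Zfp296 had 1.97 and 0.875 RPKM in cKO, against 1.35 and 0.438 RPKM in control, and Zfp292 had 0.504 and 0.512 RPKM in cKO, against 0.773 and 1.02 RPKM in control.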

How the data were processed

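Expression was measured by RNA sequencing of sorted muscle stem cells. Per the labels' protocols, 10 ng of total RNA was reverse transcribed with a low-input template-switching kit. The submitters' processing notes name mm10 and the tools Trim Galore, STAR, featureCounts of Subread and edgeR. Versions, settings and strand handling are not stated in these notes or in the labels. The deposited values behave as RPKM made by the authors: with a tolerance of 0.01 reads, 100% of values in each library were whole reads once multiplied by exon length. The authors' library sizes were 75.7%, 75.5%, 85.9% and 92.4% of the reads listed in cKO 1, cKO 2, control 1 and control 2. The depth behind each value, with n = 2 per group, sets its precision, and intervals from counting alone would leave out the spread between samples. The deposited table also holds an adjusted p-value per gene from the authors' comparison, whose model is not stated. Columns beginning with Ct were taken as control and those beginning with Fl as cKO, since the labels do not spell out Fl. Exon lengths were taken from the deposited table, and the authors' group means and standard errors in it were not used.

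The main test was limma 3.58.1 in R 4.3.3 on log2(RPKM + 0.5) of all 11603 genes with trended variance, genotype as the only term, Benjamini-Hochberg adjustment and a threshold of 0.05. The fit was also run on simulated counts without a shared replicate effect, which cannot show its power at the spread of these libraries. An exact permutation test of 2 against 2 libraries cannot go below 0.333. Fingers were counted in GENCODE M21 coding sequences as C, 2 to 4 residues, C, 12 residues, H, 3 to 5 residues, H. KRAB matches came from a profile of 67 KRAB A sequences (pyhmmer 0.12.3, E-value at most 1e-05). RefSeq proteins, which the design named, were not used here, and a profile took the place of a text pattern. Genes were named as members past the threshold in the deposited table, the 6 with the highest means, the 5 largest differences in each direction among genes of at least 1 RPKM whose groups did not overlap, members with a known role, and the most abundant and smallest-p gene of the 3 largest clusters. Zfp952, Zfp799, Zfp606, Zfp329, Zfp324, Zfp446, Zfp808, Zfp317, Zfp296 and Zfp292 were added after their values were seen. The members and lists were chosen with earlier results of these data known.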

Additional observations from a re-analysis of the deposited data

How the results depend on the processing

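The alternatives were pseudocounts of 0.1 and 1, a minimum mean of 1 RPKM, 2 rescalings, limma-voom on recovered reads, a replicate block, leaving out each library, other thresholds in the authors' deposited table, and cluster gaps of 250 kb and 1000 kb. The median log2 fold change of the members stayed below 0 in all of them. With a pseudocount of 0.1 it was -0.11, with -0.18 for KRAB genes, -0.091 for clustered genes and -0.098 for the difference from all genes. With a pseudocount of 1, KRAB genes had -0.079. With a minimum mean of 1 RPKM, clustered genes had -0.0085. With limma-voom these 4 values were -0.12, -0.17, -0.070 and -0.10. Under scaling by the reads listed they were -0.25, -0.24, -0.20 and -0.047, with 1 member higher and 35 lower at an unadjusted p under 0.05 (all genes 3.70% and 19.2%), and with 9 members (5.77%) separate above control and 88 (56.4%) below (all genes 11.4% and 47.2%). Leaving out 1 library gave -0.12 to -0.050 for members, -0.16 to -0.074 for KRAB genes, -0.092 to -0.019 for clustered genes and -0.11 to -0.048 for the difference. It gave 2 to 8 members higher and 4 to 15 lower at an unadjusted p under 0.05, and 41 to 46 separate above control and 67 to 81 below, against 35.1% to 38.4% and 36.2% to 40.7% of all genes, because fewer values separate more easily. The unadjusted counts higher and lower were 6 and 7 without cKO 2, 5 and 5 without control 1 and 2 and 4 without control 2. Members higher were 1.28% to 5.13% in these fits, against 4.19% to 9.69% of all genes. Members lower were 2.56% to 9.62%, against 3.06% to 6.89%, and only without cKO 1 was their share the larger one. With a threshold of 0.01 there were 0 members higher in the authors' deposited table, and with 0.1 there were 4 higher and 8 lower. No share of all genes was counted at 0.01 or 0.1, so these counts cannot show an excess of members. At 0.05, 1.28% of members were higher and 1.92% lower, against 3.59% and 4.26% of all genes. The cause of the other moves was not tested.

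Of 35 named members, 8 changed direction under scaling by the reads listed, where the median of all genes moved by -0.19. These were Zfp326 at -0.033, Zfp330 at -0.12, Zfp335 at -0.14, Zfp410 at -0.15, Zfp516 at -0.065, Zfp644 at -0.20, Zfp703 at -0.22 and Zfp809 at -0.18. Leaving out 1 library changed the direction of 9, with ranges of -0.33 to 0.046 for Zfp318, -0.042 to 0.27 for Zfp330, -0.11 to 0.23 for Zfp335, -0.042 to 0.35 for Zfp516 and -0.51 to 0.048 for Zfp568. The ranges were -0.033 to 0.056 for Zfp644, -0.25 to 0.28 for Zfp703, -0.14 to 0.046 for Zfp706 and -0.031 to 0.11 for Zfp809. The 5 genes of the authors' deposited table kept their direction in each alternative.

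The groups share replicate numbers, but no label says what a number marks, and there are only 2 pairs. Same-numbered libraries deviated together, with a correlation of 0.39 across all genes, which are not independent replicates. With the replicate block, which leaves 1 residual degree of freedom before pooling over genes, limma called 1004 of 11603 genes, with 2 members higher and 4 lower. At an unadjusted p under 0.05 there were 14 members higher (8.97%) and 21 lower (13.5%), against 16.3% and 13.6% of all genes. The 6 were Zfp949, Zfp612, Zfp365, Zfp651, Zfp655 and Zfp830, with limma adjusted p values from 0.0178 to 0.0496. Cluster gaps of 250 kb and 1000 kb gave 12 and 14 clusters of 50 and 69 genes, with medians of -0.032 and -0.037 over the clustered genes. Low depth limits genes such as Zfp808 and Zfp324.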
